A study of Mus musculus with 15 samples.

Results

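The chromosome 1 regions were all rows of the deposited ATAC-seq table whose name places them on mouse chromosome 1 (build mm9). They were 2923 of 43020 regions, or 6.79% of the table, and reached from position 3036508 to position 196957877. ATAC-seq cuts and tags DNA where chromatin is open, so the count of a region is a measure of how accessible its DNA is. The samples were 15 libraries of mouse colon cancer organoids, all labelled with the genotype AKP and with C57Bl6 recipient mice, in 5 groups of 3 lines. Met1, Met2 and Met3 came from liver metastases of rounds 1, 2 and 3, and Primary2 and Primary3 from primary tumours of rounds 2 and 3. Primary tumour lines of round 1 were not analysed here. The labels do not say which line descended from which, or whether the 3 lines of a group came from separate animals, so every p-value below measures only the spread among these lines.

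Chromosome 1 is the longest mouse chromosome, and like the other mouse autosomes it has its centromere at the end where positions start. A region's count rises with the openness of its chromatin and also with the number of DNA copies in the cell. Openness usually differs from one promoter or enhancer to the next, while copy number changes every region of a chromosome or a segment together. With these counts openness and copy number cannot be told apart at any region. Regions are given by name and mm9 position, were not assigned to genes, and are shown without their DNA sequence.

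Chromosome 1 was singled out for its difference between metastasis and primary lines of rounds 2 and 3. That comparison, and each of the rounds 2 and 3 taken alone, is therefore given as a description. No p-value is printed for it, and calls in it serve only to count and pick out regions. Comparisons among metastasis lines, among primary lines and between the rounds did not choose the chromosome and are given with their tests. Met2 and Met3 entered the choice and Met1 did not, so comparisons of Met1 with them are not fully independent of it.

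The regions of chromosome 1 were 200 to 3912 bp wide with a median of 707 bp, against a median of 753 bp on the other autosomes. A filter on low counts kept 2672 regions (91.4%), against 93.2% on the other autosomes. The 251 regions that did not pass held 0.691% to 2.21% of the chromosome 1 counts of a line. Total counts over all regions ran from 285633 in Primary3 replicate 2 to 5916109 in Primary3 replicate 3. The median chromosome 1 region held 2 counts in the former and 63 in the latter, and 790 of the 2923 regions had no count in Primary3 replicate 2. A count of 0 in that line allows up to 9.56 CPM (counts scaled to the size of the library), the level of 3 counts, so low values there are imprecise.

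Chromosome 1 held more of the autosomal counts in every metastasis line than in any primary line. Its share was 6.62%, 6.61% and 6.68% in the Met1 lines, 6.39%, 6.83% and 6.55% in the Met2 lines, and 6.83%, 6.87% and 7.25% in the Met3 lines. It was 5.70%, 5.73% and 5.76% in the Primary2 lines and 5.71%, 5.50% and 5.91% in the Primary3 lines. The 9 metastasis lines thus spanned 6.39% to 7.25% and the 6 primary lines 5.50% to 5.91%, with a gap between them. The exact (Clopper-Pearson) 95% interval was widest in Primary3 replicate 2, at 5.42% to 5.59%. These intervals cover counting error only, since amplified reads are not independent molecules.

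**Figure D1:**
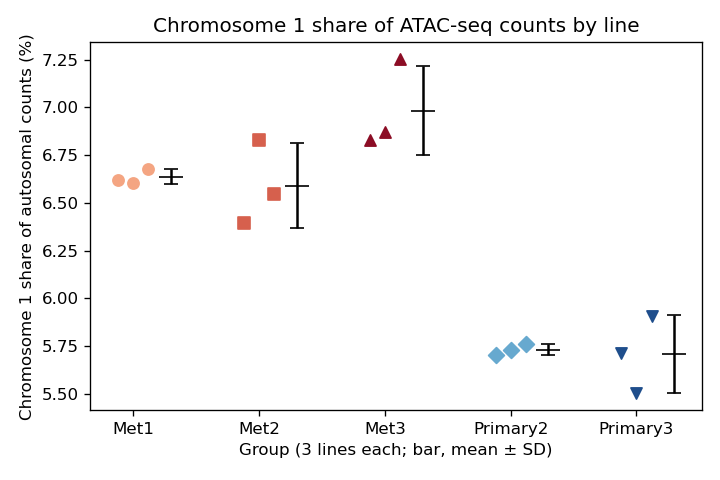
Share of autosomal ATAC-seq counts on chromosome 1 in percent (y axis, not starting at 0) for each of the 15 lines by group (points), with the mean and SD of each group (bars). The 9 metastasis lines lie between 6.39% and 7.25% and the 6 primary lines between 5.50% and 5.91%.

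By group, the share was 6.64% ± 0.0389 in Met1, 6.59% ± 0.221 in Met2 and 6.98% ± 0.235 in Met3, against 5.73% ± 0.0279 in Primary2 and 5.71% ± 0.203 in Primary3 (SD, n = 3 each). The ratio of metastasis to primary means was 1.15 in round 2, 1.22 in round 3 and 1.19 over both. The Met1 lines, which had no part in choosing the chromosome, had 0.978 times the share of the later metastasis lines and 1.16 times that of the primary lines. The Met1 comparison uses the same 6 primary lines that helped choose the chromosome, so it is given as a value with no test.

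The typical region showed the same order as the summed counts. For each line, the median over chromosome 1 regions was taken of log2 CPM minus the region's mean over the 15 libraries, relative to the library's median over all regions. It was 0.05, 0.08 and 0.07 in the Met1 lines, 0.02, 0.12 and 0.06 in the Met2 lines, and 0.14, 0.11 and 0.20 in the Met3 lines. It was -0.14, -0.15 and -0.14 in the Primary2 lines and -0.10, -0.21 and -0.08 in the Primary3 lines. All 9 metastasis lines were above their own library's median region and all 6 primary lines below it. Chromosomes 9 and 13 showed the same separation, and chromosomes 8, 11 and 18 showed the reverse. Among the 20 chromosomes compared (19 autosomes and X), chromosome 1 ranked from 1 to 7 by this median in the metastasis lines and from 17 to 20 in the primary lines.

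The difference between metastasis and primary lines of rounds 2 and 3 was 0.24 on this log2 scale, 0.21 in round 2 and 0.28 in round 3. The pooled SD within groups was 0.04. Of the 20 chromosomes, chromosome 1 had the highest difference, followed by chromosome 13 at 0.23 and chromosome 5 at 0.22. Chromosome 5 was uneven among the metastasis lines, with a range of 0.81 over the 9 lines. The range on chromosome 1 was 0.17, and on chromosome 13 it was 0.14. Thus chromosome 5 differed from line to line more than chromosomes 1 and 13 did. Over the 20 chromosomes the range ran from 0.06 on chromosome 18 to 0.81 on chromosome 5, so a narrow range was not particular to chromosome 1.

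**Figure D2:**
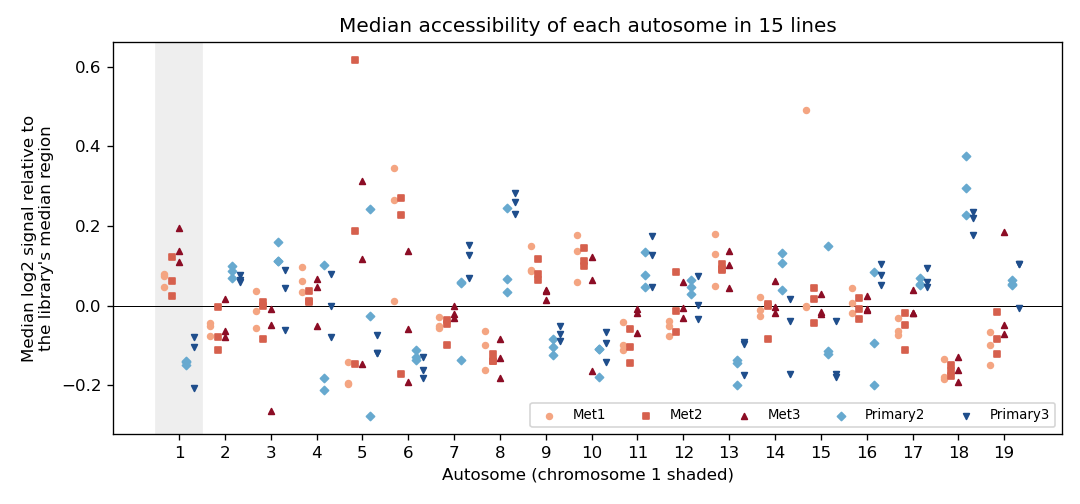
Median log2 signal of each autosome relative to the library's median region (y axis) in each of the 15 lines (points, by group), with chromosome 1 shaded. On chromosome 1, as on chromosomes 9 and 13, all 9 metastasis lines are above 0 and all 6 primary lines below it. On chromosome 5 the metastasis lines spread over 0.81.

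The rounds were then compared, a comparison that did not choose the chromosome. The metastasis minus primary difference was 0.07 larger in round 3 than in round 2 on the log2 scale. A 2-sided exact permutation test of the round labels within metastasis and within primary lines gave p = 0.29 (400 assignments, adjusted p = 0.671 over 20 chromosomes). Met3 exceeded Met2 by 0.08 (2-sided exact permutation p = 0.2), and the lowest Met3 value, 0.11, lay below the highest Met2 value, 0.12. Primary3 and Primary2 differed by 0.01 (exact permutation p = 0.8). With 3 lines against 3 the smallest p this test can give is 0.1, so neither of these last tests could have passed 0.05. The test with 400 assignments has a smallest p of 0.005, so a single chromosome could not have passed 0.05 after adjustment over 20 chromosomes. No difference between rounds was detectable with these tests on chromosome 1 as a whole.

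The profile along chromosome 1 was then taken in windows of 10 Mb, as the same median over the regions of a window. Of 20 windows, 19 held at least 20 tested regions (39 to 297 each), and the window from 110 to 120 Mb, with 7, was left out. In 18 of the 19 windows (94.7%) the metastasis lines of rounds 2 and 3 had the higher mean, against 124 of 233 windows (53.2%) on the other autosomes. The other autosomes were not alike in this. Every window was higher on chromosomes 5 (16 of 16), 6 (15 of 15) and 13 (12 of 12), and none on chromosomes 8 and 18. In 10 of the 19 windows (52.6%) all 6 metastasis lines lay above all 6 primary lines, against 24 of 233 (10.3%) elsewhere. The latter pools chromosomes with no window higher and chromosomes with every window higher, and no such count is given for single chromosomes. On chromosome 1 the higher signal was thus spread over most of its length and was not held by a single segment. Each round showed it, with 17 of 19 windows higher in round 2 and 17 in round 3.

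**Figure D3:**
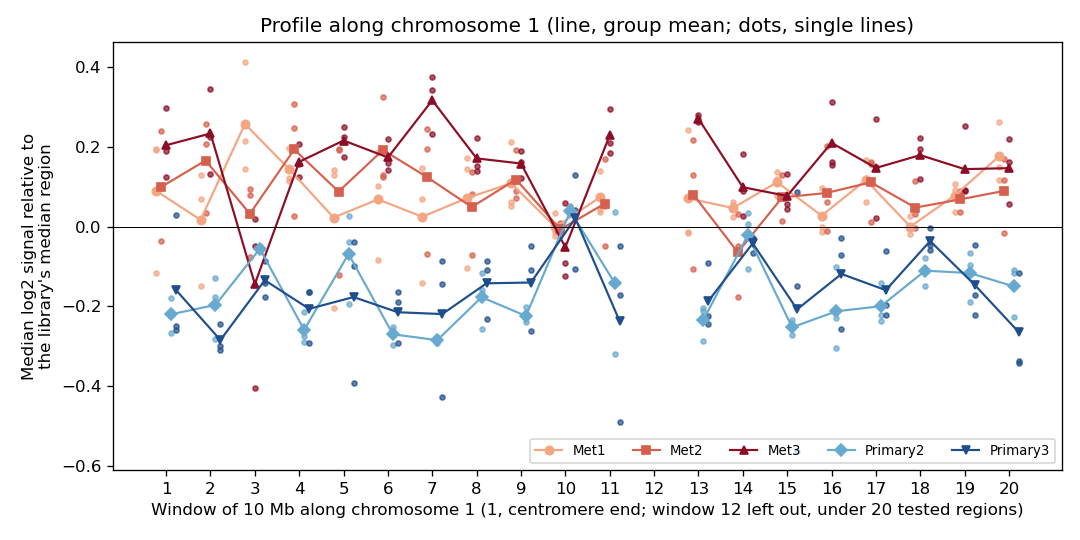
Median log2 signal relative to the library's median region (y axis) in windows of 10 Mb along chromosome 1 (x axis, numbered from the centromere end), as group means (lines) and single lines (points). The metastasis groups lie above the primary groups in most windows, and the groups come together in windows 10 and 14.

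The window differences ran from -0.06 to 0.47 on the log2 scale, with a median of 0.31 and an SD of 0.142. The highest was from 60 to 70 Mb, where 35 of 116 tested regions were called higher and 5 lower by the model described below. Of all tested regions, 11.2% were called higher and 8.98% lower, and the window counts of this contrast are descriptions. There the Met2 lines were at -0.07, 0.24 and 0.20 and the Met3 lines at 0.23, 0.34 and 0.38. The Primary2 lines were at -0.29, -0.28 and -0.28 and the Primary3 lines at -0.09, -0.43 and -0.15. The later metastasis lines did not overlap the primary lines, while Met1 replicate 1, at -0.14, fell below Primary3 replicate 1. The windows from 10 to 20 Mb (0.44), 50 to 60 Mb (0.43) and 30 to 40 Mb (0.41) followed. From 30 to 40 Mb the ratio of summed CPM was 1.36, with 54 of 195 tested regions called higher and 6 lower, and the Met1 lines were at 0.12, 0.20 and 0.11, above every primary line.

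The windows from 90 to 100 Mb, 130 to 140 Mb and 20 to 30 Mb departed from this profile. From 90 to 100 Mb, with 252 tested regions, the difference was -0.06 and the ratio of summed CPM was 0.971. There 24 regions were called higher and 30 lower, and the lines of all 5 groups lay between -0.12 and 0.13. Within it, the stretch from 92 to 93 Mb had 1 region called higher and 11 called lower among 59 tested, and that from 99 to 100 Mb had 4 called higher and 0 lower among 20. From 130 to 140 Mb, the window with the most tested regions (297), the difference was 0.05, with 31 regions called higher and 23 lower. Both are windows with many regions, and over the 19 windows the number of tested regions and the difference had a Spearman rho of -0.33 (Pearson r -0.47), against a rho of -0.20 over the windows of the other autosomes. Windows of 1 chromosome share the same libraries, so these correlations are descriptions only.

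The third exception, from 20 to 30 Mb, was the window where Met1 stood furthest above the later metastasis lines. The Met1 lines were at 0.14, 0.21 and 0.41, the Met2 lines at 0.08, 0.09 and -0.08, and the Met3 lines at -0.40, -0.05 and 0.02. The Primary2 lines were at -0.05, -0.06 and -0.05 and the Primary3 lines at -0.14, -0.18 and -0.09. All Met1 lines lay above all other lines, and Met3 replicate 1 lay below all of them. The difference between metastasis and primary lines of rounds 2 and 3 was 0.04 by medians, while summed CPM gave a ratio of 1.19. Between Met3 and Met1, 4 of its 78 tested regions were called higher and 9 lower, where 5.98% and 3.56% of all tested regions were. Of the 9 lower regions, 7 lay from 20 to 21 Mb. The difference between rounds was tested in each window, and the lowest adjusted p on chromosome 1 was 0.716 (exact permutation, adjusted over 266 windows). Before adjustment the lowest exact permutation p was 0.1. The smallest p this test can give is 0.005, so a single window could not have passed 0.05 after adjustment.

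The shift was present at every signal level and width. All tested regions were sorted into 4 classes of equal size by their mean log2 CPM, and fold changes are those of the model described below. The chromosome 1 median of the log2 fold change of metastasis against primary lines was 0.35, 0.29, 0.28 and 0.30 from the weakest to the strongest class. On the other autosomes it was 0.09, -0.01, -0.02 and 0.04. By width the chromosome 1 medians were 0.36, 0.33, 0.29 and 0.25 from narrow to wide, against 0.12, 0.02, 0.01 and -0.01. Narrow regions were thus further on the side of the metastasis lines on chromosome 1 and elsewhere alike.

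**Figure D4:**
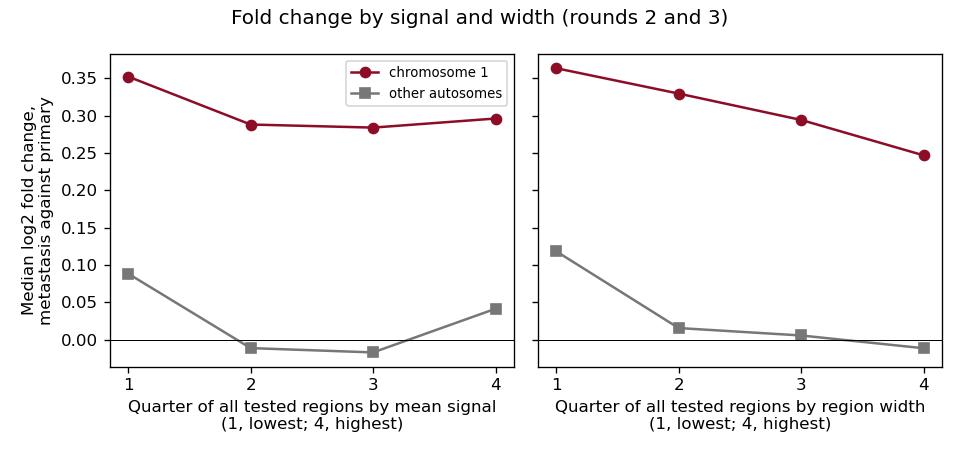
Median log2 fold change of metastasis against primary lines of rounds 2 and 3 (y axis) by class of mean signal and of region width (x axes, 4 classes of equal size over all tested regions), for chromosome 1 and for the other autosomes. Chromosome 1 lies between 0.25 and 0.36 in every class and the other autosomes between -0.02 and 0.12.

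Single regions were compared with edgeR's quasi-likelihood test over all 39952 tested regions of the table, and a region is called where the Benjamini-Hochberg adjusted p is under 0.05. Between metastasis and primary lines of rounds 2 and 3, 670 of 2672 chromosome 1 regions were called (25.1%), where 20.2% of all tested regions were. Of these, 516 were higher in metastasis lines (19.3%, against 11.2% of all regions) and 154 were lower (5.76%, against 8.98%). This contrast chose the chromosome, and nothing is read from these shares. Changes of 4-fold or more made up 124 of the calls with higher signal (24.0%, against 25.7% over all regions) and 41 of those with lower signal (26.6%, against 18.8%). The whole distribution was displaced, with a median log2 fold change of 0.30 and 68.1% of regions above 0, against 0.02 and 51.6% on the other autosomes. The interquartile range was -0.15 to 0.74 on chromosome 1 and -0.41 to 0.45 on the other autosomes.

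In round 2 alone, 161 regions were called higher (3.44% of all tested regions were) and 56 lower (2.77% of all were), 8.12% together against 6.21% of the whole table. In round 3 alone, 270 were called higher (5.64% of all tested regions were) and 72 lower (4.52% of all were), 12.8% together against 10.2%. These 2 contrasts also belong to the choice of the chromosome, and nothing is read from the shares. When each library's median for a chromosome was first removed, the split over both rounds became 306 higher (11.5%) and 242 lower (9.06%). In round 2 the split was then 93 higher (3.48%, against 3.07% of all regions) and 77 lower (2.88%, against 2.50%). In round 3 it was 164 higher (6.14%, against 5.41% of all regions) and 119 lower (4.45%, against 4.37%). Over all tested regions 10.2% were then higher and 8.50% lower over both rounds. The removal takes away a shift of a whole chromosome by construction, so nothing is read from the nearness of these shares. Of the 670 regions, 460 were among the 548 called after that removal.

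Some calls stood alone and others lay close together. Of the 516 higher regions, 287 lay within 50 kb of another region called higher and 229 did not. Of the 154 lower regions, 65 lay within 50 kb of another region called lower and 89 did not. No such counts are given for the other autosomes. A direction with more calls also has more neighbours, so nothing is read from these counts. The largest group of higher regions reached from 69490888 to 69518223 and held 8 regions, all of those tested there. Its summed CPM was 58.9, 113 and 80.6 in the Met1 lines, 66.4, 159 and 99.95 in Met2, and 157, 148 and 196 in Met3. It was 46.9, 27.9 and 30.7 in Primary2 and 19.9, 22.3 and 24.2 in Primary3. No metastasis line overlapped the primary lines, and the log2 fold changes of the 8 regions ran from 1.95 to 3.73. The largest group of lower regions, 6 of 7 tested from 186676144 to 186718955, had a median log2 fold change of -1.33. Its summed CPM was 56.4 to 74.4 in Met2, 56.5 to 87.7 in Met3, 164 to 167 in Primary2 and 92.4 to 157 in Primary3. The Met1 lines, at 130.2, 141 and 134, lay among the primary lines there.

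The regions named next had the largest changes among called regions that met further conditions. These were a mean signal at or above the median and no overlap between metastasis and primary lines in either round. The largest increase was at peak_473 (31657365 to 31658317). It had 54.5, 118 and 65.7 CPM in the Met2 lines and 109.9, 116 and 122 in Met3. Primary2 lines had 11, 8.21 and 13.7 CPM, and Primary3 lines 4.2, 6.37 and 4.3. The Met1 lines, at 37.4, 28.5 and 5.07, fell between these sets or among the primary lines. The log2 fold change over both rounds was 3.79 ± 0.35 (SE).

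At peak_909 (40021016 to 40021880, log2 fold change 2.80) the later metastasis lines were high and the first round was not. Met2 lines had 19.9, 52.0 and 79.7 CPM and Met3 lines 82.6, 53.0 and 60.2. Met1 lines had 9.06, 11.4 and 8.65 CPM, inside the range of the primary lines, which was 5.67 to 16.1. At peak_438 (27101191 to 27102304) the spread among lines was wide, with 6.64, 38.6 and 50.3 CPM in Met2 and 51.6, 35.1 and 33.0 in Met3. Primary2 lines had 5.79, 1.09 and 3.23 CPM there, and Primary3 lines 2.45, 0 and 4.30. Met2 replicate 1 was close to the primary lines at this region, and its log2 fold change was 3.42 ± 0.46 (SE).

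The other 7 of the 10 named increases included the one next in size to peak_473 among those named. This was peak_3088 (96846444 to 96847516, log2 fold change 3.65). They also included peak_4435 (154048488 to 154049293, 3.41) and peak_5764 (191635628 to 191636120, 3.30). Smaller changes were those of peak_4353 (151750018 to 151750630, 2.84), peak_5823 (192722860 to 192724025, 2.76), peak_1866 (77201530 to 77202124, 2.57) and peak_3213 (108483034 to 108483918, 2.49). Primary3 replicate 2 had 0 CPM at peak_3088, peak_4435, peak_5764, peak_4353, peak_5823, peak_1866 and peak_3213, which at its depth allows 9.56 CPM. The fold change of peak_3088 rose to 4.28 without Primary2 replicate 1.

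Among decreases, peak_25 (4660579 to 4662744) had 4.65, 17.9 and 15.4 CPM in the Met2 lines and 1.21, 17.2 and 13.6 in Met3. It had 130.3, 129 and 132 CPM in Primary2 and 119.9, 76.5 and 118 in Primary3. The Met1 lines were at 15.9, 24.1 and 64.1 CPM, below every primary line and, for replicate 3, well above the later metastasis lines. The log2 fold change over both rounds was -3.30 ± 0.37 (SE).

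A pair of neighbours, peak_5509 (184018543 to 184020431) and peak_5510 (184021416 to 184022263), were both among the 10 named decreases, at -3.26 and -2.65. At peak_5509 the Met2 lines had 4.65, 11.2 and 2.80 CPM and the Met3 lines 14, 6.49 and 7.12. Primary2 lines had 66.0, 95.7 and 55.7 CPM, and Primary3 lines 68.9, 89.2 and 75.8. The Met1 lines, at 24.9, 9.83 and 36.4, were below all primary lines. Another pair of neighbours was peak_4051 (136981997 to 136983356, -2.20) and peak_4052 (136985948 to 136986628, -2.15).

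The widest of these regions, peak_1775 (74851993 to 74855009, 3016 bp), was low in all metastasis groups. It had 30.6, 13.6 and 26.9 CPM in Met1, 12, 22.0 and 23.1 in Met2, and 14, 26.3 and 20.1 in Met3. It had 98.5, 102 and 74.2 CPM in Primary2 and 115, 47.8 and 81.2 in Primary3. All 9 metastasis lines were below all 6 primary lines, and the log2 fold change was -2.16 ± 0.25 (SE). The remaining decreases were peak_4982 (170432334 to 170432907, -3.05), peak_3948 (135837750 to 135839014, -2.76), peak_2982 (95058492 to 95058872, -2.19) and peak_3715 (133647885 to 133649618, -2.07).

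Taken by round, the same rule named peak_438 (3.23), peak_4353 (3.19) and peak_3088 (2.93) as the largest increases of round 2, and peak_5509 (-3.45), peak_25 (-3.33) and peak_3948 (-3.20) as the largest decreases. In round 2 the change of peak_3088 depended on single lines: it was 2.14 without Met2 replicate 2, 2.49 without Primary2 replicate 2 and 2.67 without Primary2 replicate 3, and did not meet the calling threshold in any of these. It was 4.22 without Primary2 replicate 1. The fold change of peak_438 was 3.95 without Primary2 replicate 1 and that of peak_5509 was -4.25 without Met2 replicate 2. For peak_3948, where Primary2 replicate 3 had 82.3 CPM against 23.7 and 15.9 in the other Primary2 lines, it was -2.19 without that line and no longer called.

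In round 3 the rule named peak_473 (4.70), peak_3088 (4.37) and peak_5764 (4.27) for increases, and peak_4982 (-3.90), peak_25 (-3.28) and peak_5509 (-3.08) for decreases. The fold change of peak_5764 was 5.42 without Primary3 replicate 1 and 3.62 without replicate 3. That of peak_3088 was 5.08 without Primary3 replicate 3, and that of peak_25 was -3.89 without Met3 replicate 2.

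The comparisons of metastasis rounds did not choose the chromosome. Met2 and Met3 did enter that choice while Met1 did not, so their comparisons with Met1 are not fully independent of it. Between Met3 and Met1, 235 of 2672 chromosome 1 regions were called (8.79%), where 9.54% of all tested regions were, so the chromosome 1 share lay near that of the whole table. Of these, 170 were higher in Met3 (6.36%, against 5.98% of all regions) and 65 lower (2.43%, against 3.56%). The median log2 fold change was 0.06 on chromosome 1 and -0.04 over all tested regions. Scaling by total counts moved the latter to -0.17 and the former to -0.07, and the split to 128 higher and 96 lower. The sign of the chromosome 1 median thus depends on the scaling, which moved all regions nearly alike. The number called was 120 and 121 without Met1 replicate 2 or 3, and 112, 139 and 148 without Met3 replicate 1, 2 or 3.

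Among regions chosen by the naming rule, the one with the largest increase was peak_1052 (43825079 to 43826581). It was low in Met1 and high in the other 4 groups. Met1 lines had 6.79, 10.5 and 12.8 CPM. Met2 lines had 113, 137 and 51.7, Met3 lines 109, 97.7 and 110.1, Primary2 lines 105, 73.3 and 88.7, and Primary3 lines 91.6, 51.0 and 85.6. The Met1 lines did not overlap any other line, while the later metastasis lines lay in the range of the primary lines or above it. The log2 fold change of Met3 against Met1 was 3.30 ± 0.33 (SE, edgeR adjusted p = 6.67e-06), and that of Met2 against Met1 was 3.24 (adjusted p = 1.44e-05).

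A different pattern was seen at peak_3525 (128253296 to 128254282), where Met3 alone was highest. Met1 lines had 15.9, 7.61 and 10.7 CPM, Met2 lines 26.6, 67.7 and 55.2, and Met3 lines 117, 84.3 and 84.8. Primary2 lines had 19.1, 10.9 and 22.6 CPM, and Primary3 lines 29.4, 12.7 and 28.7. Every Met3 line lay above every other line, with a log2 fold change of 3.15 ± 0.38 against Met1 (SE, edgeR adjusted p = 3.57e-05). Further increases were at peak_4352 (151744288 to 151744925, 3.19, edgeR adjusted p = 0.000337), peak_2277 (88197958 to 88198681, 3.01, 0.000211) and peak_941 (40374570 to 40375971, 2.97, 0.0026). At peak_941 Met1 replicate 1 had 22.6 CPM against 3.17 and 4.18 in the other Met1 lines, and the fold change was 4.02 without it.

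**Figure D5:**
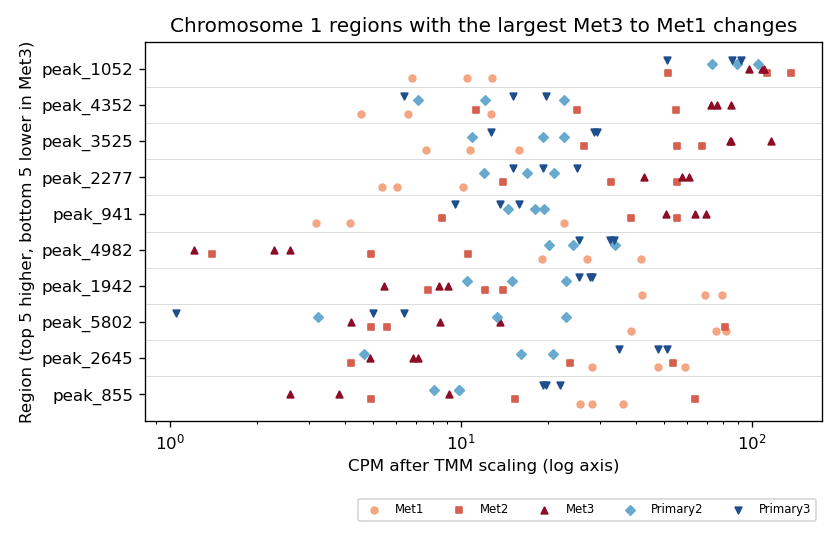
CPM after TMM scaling (x axis, log scale) in each of the 15 lines (points, by group) at the 5 chromosome 1 regions with the largest increase and the 5 with the largest decrease from Met1 to Met3 among those chosen by the naming rule. At peak_1052 the Met1 lines, at 6.79 to 12.8 CPM, lie apart from all other lines.

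Among regions chosen by the naming rule, the largest decrease from Met1 to Met3 was at peak_4982. It is also among the 10 named decreases of metastasis against primary lines. Outside that rule, a called region between 20730520 and 20734381 had a lower log2 fold change, at -3.92. Met1 lines had 27.2, 19 and 41.8 CPM, Met2 lines 10.6, 4.93 and 1.40, and Met3 lines 1.21, 2.29 and 2.59. Primary2 lines had 24.3, 33.9 and 20.2 CPM, and Primary3 lines 33.6, 25.5 and 32.5. The Met1 lines were thus in the range of the primary lines or close to it, and the later metastasis lines were below all of them. Met3 differed from Met1 there by -3.81 ± 0.55 on the log2 scale (SE, edgeR adjusted p = 0.000182).

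At peak_1942 (79674375 to 79675881) Met1 was above every other group. Met1 lines had 41.9, 79.0 and 68.9 CPM, Met2 lines 13.9, 12.1 and 7.69, and Met3 lines 5.47, 8.39 and 9.06. Primary lines ran from 10.5 to 28.3 CPM, so no line of another group reached the lowest Met1 line. The log2 fold change of Met3 against Met1 was -3.05 ± 0.38 (SE, edgeR adjusted p = 4.9e-05).

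The other named decreases were peak_5802, peak_855 and peak_2645. At peak_5802 (192356352 to 192357467, -2.96 ± 0.82 SE, edgeR adjusted p = 0.0274) the fold change was -2.85 and -2.76 without Met1 replicate 2 or 3, and -2.96 and -2.59 without Met3 replicate 1 or 2, with adjusted p from 0.0812 to 0.124. At peak_855 (39313037 to 39313989, -2.55 ± 0.63 SE, adjusted p = 0.0123) the fold change was -2.35 and -2.26 without Met3 replicate 2 or 3, with edgeR adjusted p of 0.0669 and 0.0613, and -3.17 without Met3 replicate 1. Leaving out these lines took the adjusted p past 0.05 except for Met3 replicate 1 at peak_855, while the changes stayed close in size or grew. In both regions Met2 replicate 1 stood apart from the other Met2 lines, with 81.0 CPM against 4.93 and 5.59 at peak_5802, and with 63.8 against 4.93 and 15.4 at peak_855. At peak_2645 (92175763 to 92177099, -2.82, edgeR adjusted p = 0.00431) the Met1 lines had 47.6, 28.2 and 59.1 CPM, the Met2 lines 53.8, 23.8 and 4.19, and the Met3 lines 4.86, 6.87 and 7.12. Primary2 lines had 4.63, 20.8 and 16.1 CPM and Primary3 lines 47.6, 51.0 and 35.1, so the Primary3 lines lay in the range of Met1 and the Primary2 lines below it.

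Regions that fell from Met1 to Met3 also lay beside each other in places. All 4 tested regions from 82968177 to 82989019 were called lower in Met3, with log2 fold changes from -1.98 to -3.0. Their summed CPM was 39.6, 95.8 and 113 in Met1 and 17.0, 11.4 and 18.1 in Met3, and it lay between 16.8 and 30.6 in the primary lines. From 20 to 21 Mb, in the window where Met1 stood highest, 3 of 3 tested regions from 20607828 to 20615001 and 2 of 2 from 20730520 to 20734381 were called lower, with medians of -1.81 and -3.25. Among increases, all 4 tested regions from 120526703 to 120554209 were called higher, with a median of 2.56. Their summed CPM was 73.6, 35.5 and 33.1 in Met1 and 209.6, 163 and 143 in Met3.

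Between Met2 and Met1, 90 chromosome 1 regions were called (3.37%, where 3.55% of all tested regions were), 67 higher in Met2 (2.51%, against 2.64% of all regions) and 23 lower (0.861%, against 0.909%). Both Met1 comparisons share the Met1 lines. The number called was 33 without Met1 replicate 2, 32 without Met1 replicate 3, 162 without Met2 replicate 1 and 51 without Met2 replicate 3. With only these 2 groups in the fit it was 5. Besides peak_1052, the largest increases among regions chosen by the naming rule were at peak_5194 (175696938 to 175697838, 2.68, edgeR adjusted p = 0.00705) and peak_1432 (62780606 to 62781378, 2.55, adjusted p = 0.000661). At peak_1432 the Met1 lines had 10.2, 7.61 and 5.97 CPM, the Met2 lines 51.1, 40.8 and 41.2, and the Met3 lines 32.2, 52.6 and 35.0. Primary lines ran from 6.37 to 21 CPM, so both later metastasis groups lay above all Met1 and primary lines.

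By the same rule, the largest decreases from Met1 to Met2 were at peak_1942 (-2.50, edgeR adjusted p = 0.00062), peak_4982 (-2.37, adjusted p = 0.00787) and peak_3441 (122551340 to 122552167, -2.07, adjusted p = 0.0344). The change at peak_4982 was -3.08 without Met2 replicate 1, was not called without Met1 replicate 3 (-1.98, adjusted p = 0.0689), and was not called with only the 2 groups in the fit (adjusted p = 0.145). At peak_5194 the call was lost without Met1 replicate 2 (2.50) or 3 (2.27) and with only the 2 groups in the fit (2.60). At peak_3441 the change was -2.19 and -1.56 without Met1 replicate 1 or 3, -1.60 and -2.10 without Met2 replicate 1 or 3, and -2.08 with only the 2 groups in the fit. The edgeR adjusted p was then from 0.0518 to 0.221, and the change was -2.76 without Met2 replicate 2 and still called.

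No chromosome 1 region was called between Met3 and Met2, between Primary3 and Primary2, or for the difference between rounds (0.0% of all tested regions by edgeR in each). At an unadjusted p under 0.05 there were 179, 171 and 162 chromosome 1 regions in these comparisons (6.70%, 6.40% and 6.06%, where 7.32%, 6.62% and 6.43% of all tested regions were). DESeq2 called 3 regions lower in Met3 than in Met2, 3 higher in Primary3 than in Primary2, and 1 lower for the difference between rounds. These were 0.112%, 0.112% and 0.0374% of chromosome 1 regions. Over all tested regions DESeq2 called 0.11%, 0.135% and 0.0375% in either direction, so the shares were near each other. Without Met2 replicate 2, edgeR called 6 regions between Met3 and Met2, where 0.131% of all tested regions were called. Without Met2 replicate 3 it called 3 there (0.109% of all tested regions were) and 1 for the difference between rounds (0.0145% of all were). The chromosome 1 medians of the log2 fold change were 0.07, -0.02 and 0.08, against -0.01, -0.05 and 0.02 over all tested regions.

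The regions with the most signal on chromosome 1 were chosen by level and not by change. The highest mean CPM was at peak_1816 (75313577 to 75314635), with 174, 252 and 266 in Met1, 273, 285 and 318 in Met2, and 302, 350.2 and 276 in Met3. Its values were 189, 204 and 184 in Primary2 and 195, 198 and 215 in Primary3, and its log2 fold change over rounds 2 and 3 was 0.60. At peak_3695 (133422948 to 133424897) that change was 0.42. At peak_248 (16217849 to 16219075) it was 0.34 and not called, while Met3 exceeded Met1 there by 0.75 (edgeR adjusted p = 0.0279), with Met1 lines at 89.4, 161 and 172 CPM and Met3 lines at 232, 252 and 237.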

How the data were processed

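ATAC-seq was measured in 15 organoid libraries. The authors deposited counts per region for every library, with region positions in mm9. Per the submitters' processing notes, Bowtie, Picard, SAMtools, MACS2 and bedtools were used, with mm9 as the genome build, in roles the notes do not give. Read shifting and duplicate handling are not given in the sources used here. Whether positions count from 0 or 1 is not given either, and they are printed as deposited.

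Counts were filtered (filterByExpr, minimum count 10, minimum total 15), scaled by TMM and fitted over all 5 groups with edgeR 4.0.16 (quasi-likelihood, limma 3.58.1, R 4.3.3), adjusted by Benjamini-Hochberg over all tested regions at 0.05. Profiles used log2 CPM with a prior count of 2, in Python 3.11.15 with scipy 1.17.1, numpy 2.4.6 and pandas 2.3.3. The fits were tested on simulated data. Total counts ran from 285633 to 5916109 per library.

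Named regions were those with the largest and smallest log2 fold changes among called regions at or above the median signal whose lines did not overlap: 10 per direction for rounds 2 and 3, 5 for Met3 against Met1 and 3 for each other comparison with calls. The 3 regions with the highest mean CPM were added. The members and lists were chosen with earlier results of these data known, and the joining of calls within 50 kb was set after seeing the data.

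Alternatives were DESeq2 1.42.0, total counts, no filter, a stricter filter (minimum count 30), other prior counts (0.5 and 5), a replicate block, chromosome medians removed, a lowess trend removed (span 0.3), the share of autosomal counts, a fit of only the groups compared, windows of 5 and 20 Mb, and leaving out each line. A list of 37 chromosome 1 genes and a check of cell type markers could not be applied, because the annotation at hand (GRCm38.p6) is of another build than the regions.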

Additional observations from a re-analysis of the deposited data

Results flagged for a closer look

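In 42 sets of lines over the windows of chromosome 1 and the chromosome as a whole, the highest or lowest line was compared with the rest of its set by the gap to its nearest neighbour. Chance alone sets about 1 in 20 such sets apart, or 2.1 of 42, and 2 were. In the window at the centromere end (positions 1 to 10000000), Primary3 replicate 2 was at 0.03 on the log2 scale, against -0.27 to -0.18 in the other 5 primary lines. This is the line with the fewest counts of all. In the window from 180000001 to 190000000, Met3 replicate 3 was at 0.252, against 0.04 to 0.11 in the other 8 metastasis lines. Met3 replicate 3 was also the line with the highest share of counts on chromosome 1 (7.25%).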

How the results depend on the processing

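The shift of chromosome 1 between metastasis and primary lines of rounds 2 and 3 was 0.245 and stayed between 0.225 and 0.263 over 10 alternatives and between 0.23 and 0.261 with each line left out. The difference between rounds, 0.066, ranged from 0.029 to 0.09, and Met3 minus Met2, 0.079, from 0.05 to 0.102. Primary3 minus Primary2, 0.013, changed sign with no filter (-0.001), as a log2 share of autosomal counts (-0.007) and without Primary3 replicate 3 (-0.01), with 0.048 at the highest; the cause was not tested. The number of windows higher in metastasis lines was 32 with 5 Mb windows (2 lower) and 10 with 20 Mb windows (0 lower), which follows from the window size, and 18 with any line left out.

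With each line left out in turn, the called regions ran from 504 to 736 for rounds 2 and 3 together, 75 to 262 for round 2, 116 to 437 for round 3, 112 to 351 for Met3 against Met1, 32 to 162 for Met2 against Met1, 0 to 6 for Met3 against Met2, 0 to 1 for the difference between rounds, and were 0 for Primary3 against Primary2. In round 3 the lowest counts were 116 and 153 without Primary3 replicate 1 or 3 and 158 and 222 without Met3 replicate 1 or 2; in round 2 they were 75, 91 and 96 without Primary2 replicate 1, 2 or 3. Where only the groups compared entered the fit, 108 regions were called in round 2 and 5 between Met2 and Met1. DESeq2 called 3, 3 and 1 regions where edgeR called 0, and 0.11%, 0.135% and 0.0375% of all tested regions in the same comparisons. Without the 2 shallowest libraries, an alternative chosen after seeing the data, 708 regions were called over rounds 2 and 3 and 244 between Met3 and Met1. Of 1104 alternative values of named regions, 22 lost their call and 0 changed sign.

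Correlations of deviations gave no clear sign that equal replicate numbers pair the lines. Between lines of the same number they ran from -0.214 to 0.156 over 30 pairs, above 0.1 in 2. For 2 of 15 lines, the mean correlation by replicate number was highest with lines of their own number in other groups. With the replicate block the called regions were 607 for rounds 2 and 3 together, 159 for round 2, 287 for round 3, 207 for Met3 against Met1 and 60 for Met2 against Met1.

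Depth limits weak regions most in Primary3 replicate 2, where the median chromosome 1 region held 2 counts. Regions could not be tied to genes or sequences, and openness and copy number could not be told apart.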
